A study of Mus musculus with 23 samples.

Results

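Mitochondrial fatty acid oxidation was followed through 10 genes in mammary fat next to an implanted breast tumor, with lean and obese hosts and with or without checkpoint blockade. The rule lists the genes by name and sets no threshold on a measured value, but the list was drawn up with earlier results of these data known. It holds Cpt1a, Cpt1b, Slc25a20 and Cpt2 of the carnitine shuttle, the acyl-CoA dehydrogenases Acadvl, Acadl and Acadm, both subunits of the trifunctional protein (Hadha and Hadhb), and the thiolase Acaa2. All 10 passed the filter on low counts, among 19882 genes tested of 47311 genes summed. In obese mice given either antibody, 7 of the 10 fell and Cpt1a alone among them rose.

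The fat pads came from female C57BL/6J mice that carried E0771 mammary carcinoma cells with a luciferase gene, of which 250000 were injected in 25% matrigel into mammary gland 4, so the hosts were of an inbred strain with no engineered allele named in the labels. Lean mice ate food with 10% of its energy as fat and obese mice food with 60%. Food and obesity differ together between these groups, so their effects cannot be told apart. A difference called one of obesity below holds both. The treatment text, which is the same for every sample, describes only the high-fat food, eaten from 8 to 26 weeks of age, so the ages and feeding times of the lean mice rest on that text. The antibody was anti-PD-1, which blocks an inhibitory receptor on T cells, or its isotype control IgG2a, at 200 µg every 3 days, begun on day 3 and ended at sacrifice on day 21. The groups held 5 lean IgG2a, 5 obese IgG2a, 5 lean anti-PD-1 and 8 obese anti-PD-1 libraries. The labels do not say that each library came from its own mouse, so p-values measure the spread between these libraries.

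Fatty acids enter mitochondria as carnitine esters: carnitine palmitoyltransferase 1 on the outer membrane makes the ester, the carrier Slc25a20 moves it inward and carnitine palmitoyltransferase 2 turns it back into an acyl-CoA. The chain is then shortened in cycles of 4 reactions, a dehydrogenation, a hydration, another dehydrogenation and a thiolysis, and the products feed the citric acid cycle and the respiratory chain. Cpt1a is the form of the liver and many other tissues and Cpt1b that of muscle and brown fat. Malonyl-CoA, the first product of fatty acid synthesis, inhibits both, and Cpt1b is the more sensitive.

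Each library held 49438121 to 77369057 estimated counts, and the 10 genes held between 195 counts (Cpt1b) and 64563 counts (Hadhb) in a library. Levels are CPM, the counts of a gene per 1000000 counts of a library after scaling between libraries, and a value after ± is the SD of a group. The fat cell markers Adipoq (306 to 3380 CPM) and Plin1 (329 to 3090 CPM) and the epithelial marker Krt18 (59.3 to 991 CPM) were present in every library, as the labelled tissue would have. Libraries stood apart in 3 ways. B cell genes were high in 11 libraries (of the IgG2a mice, 4 lean and 2 obese; of the anti-PD-1 mice, 3 lean and 2 obese), where Cd79a reached 137 to 887 CPM against at most 1.79 CPM in the other 12. A set of 5 libraries was rich in skeletal muscle genes (obese IgG2a 3 and numbers 1 and 2 of each lean group), with Ckm at 50.4 to 574 CPM against at most 1.97 CPM elsewhere. Obese IgG2a 5 alone was rich in liver genes, with Alb at 6360 CPM against at most 222 CPM in the others. Replicate numbers are names given in accession order. In bulk tissue, fewer cells of a type and less RNA per cell cannot be told apart, and this holds for every difference below.

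**Figure D1:**
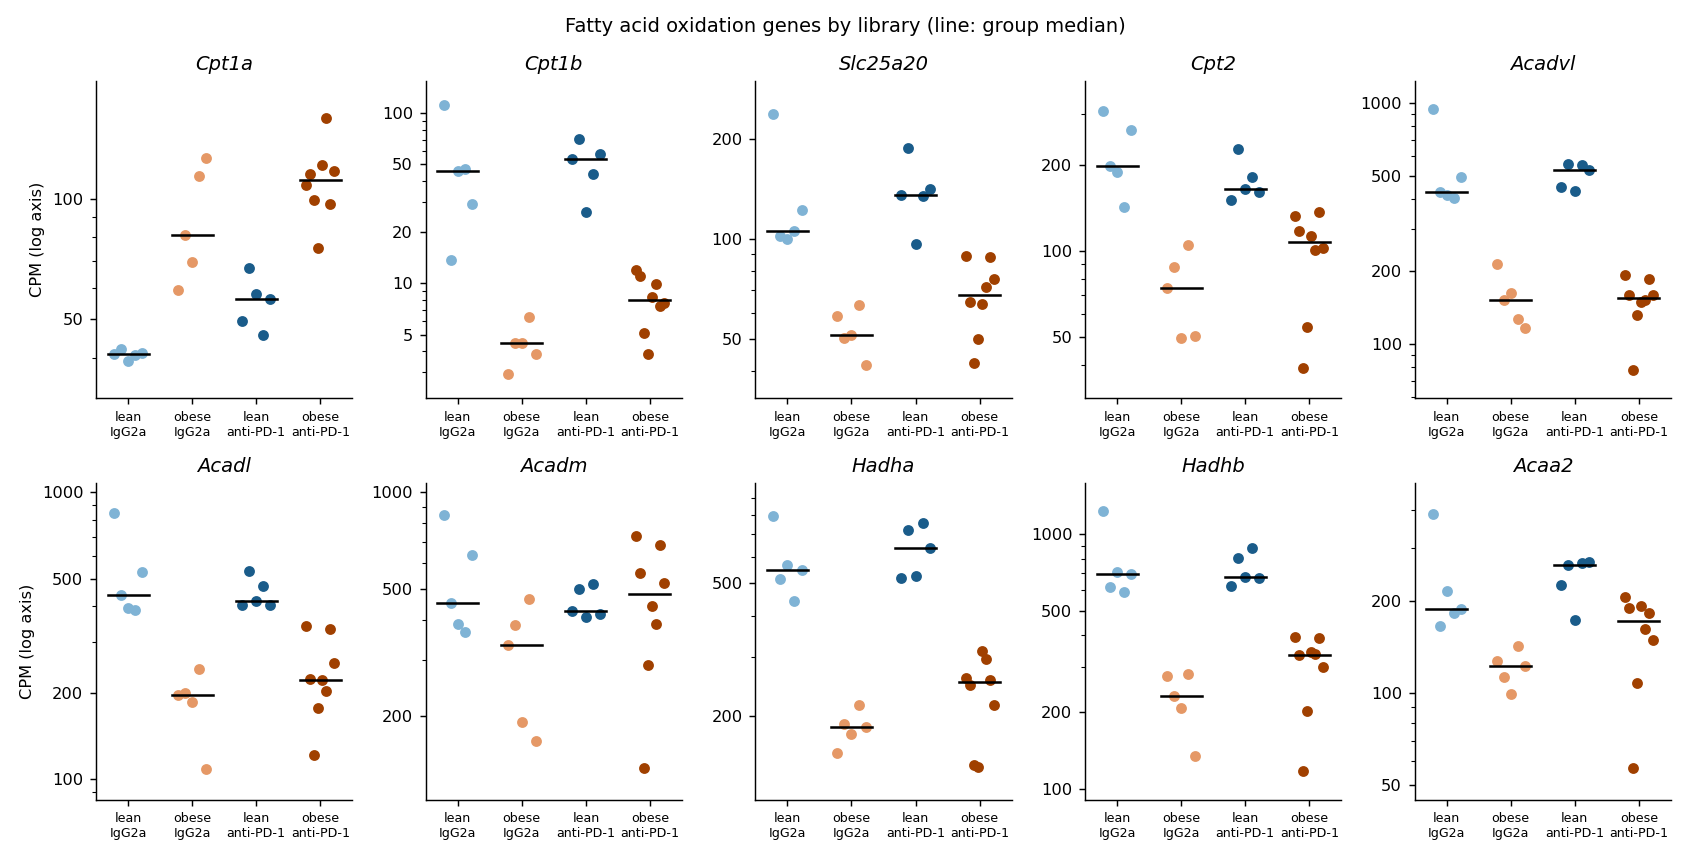
CPM (log axes, 1 panel per gene) of the 10 genes in every library. Points are libraries (5, 5, 5 and 8 per group) and lines are group medians; Cpt1a lay higher and Cpt1b, Acadvl, Hadha and Hadhb lower in every obese library than in every lean library of the same antibody, while the groups overlapped for Acadm.

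Compared per transcript length, the members differed widely in level. On the scale of TPM summed over spliced transcripts of at least 1000 bases, lean IgG2a mice had most Hadhb (297 ± 75.4), Acadl (272 ± 74.3), Acadm (237 ± 76.1) and Acadvl (236 ± 77.3). These 4 lay within their SDs of each other. Hadha (180 ± 30.2) and Acaa2 (158 ± 50.4) came next and also overlapped. Cpt2 (94.7 ± 22.8) and Slc25a20 (75.3 ± 26.3) overlapped in turn, and both forms of the entry enzyme were far lower, Cpt1b at 15.9 ± 10.8 and Cpt1a at 9.0 ± 0.678 (SD, n = 5 each). In obese IgG2a mice Acadm led with 175 ± 86.9 TPM, within its SD of Acadl (126 ± 49.0), Hadhb (115 ± 41.9) and Acaa2 (112 ± 36.0). Cpt1a stood at 27.0 ± 13.9 TPM there and Cpt1b, now the lowest, at 1.88 ± 0.836 TPM.

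The first comparison asked how the genes differed between obese and lean mice given the isotype control. Of the 10 members, 7 fell and 1 rose at an adjusted p under 0.05, where 3.12% of all genes tested fell and 2.68% rose. The median log2 fold change of the 10 was -1.53, against 0.12 over all genes tested. In mice given anti-PD-1, a comparison that shares no library with the first, 7 of 10 fell and 1 rose as well, where 4.85% of all genes fell and 5.2% rose. The median was -0.98, against 0.08 over all genes. Over all genes 620 fell and 532 rose in the first comparison and 965 fell and 1034 rose in the second; with scaling by library totals alone these splits were 488 and 1099, and 720 and 1625. Every obese IgG2a library lay below every lean one for 8 members (4.42% of all genes did so) and above every lean one for 1 (1.83% of all genes). Under anti-PD-1 these numbers were 7 members (3.11% of all genes) and 1 member (1.71% of all genes).

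**Figure D2:**
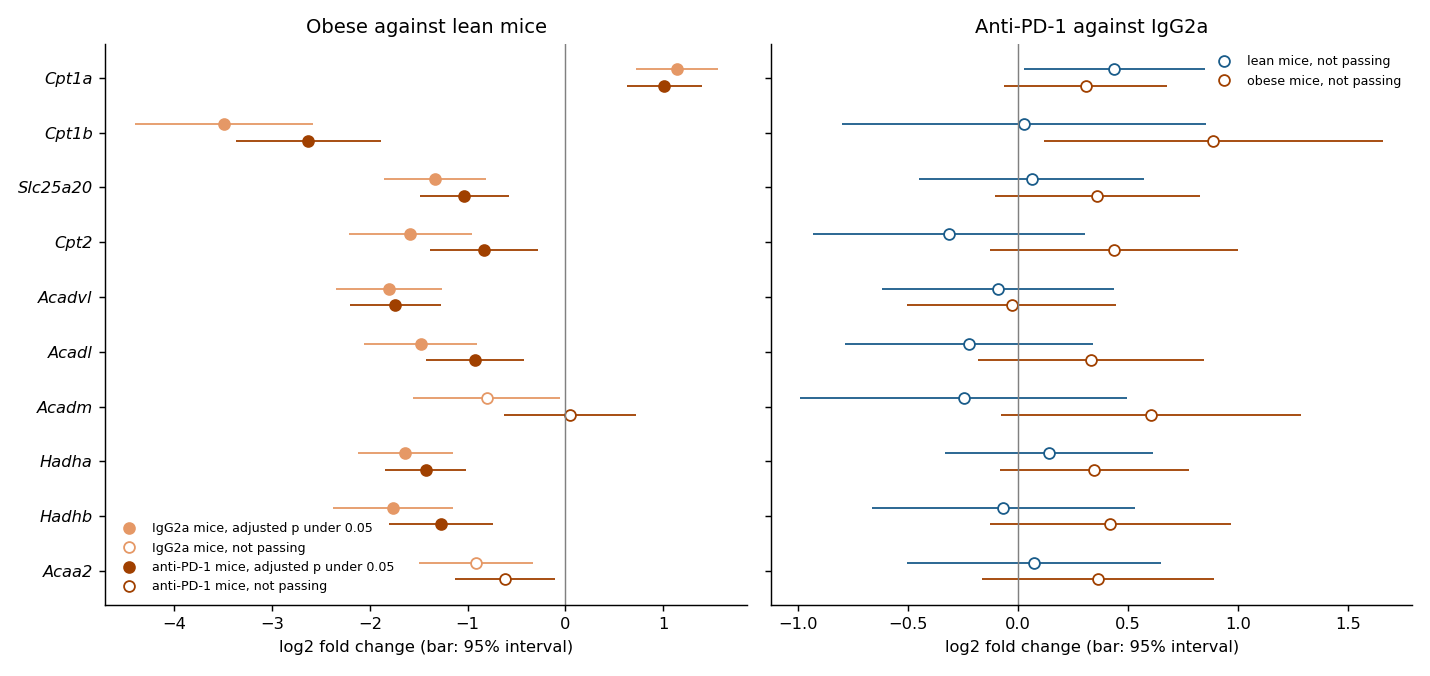
Log2 fold changes of the 10 genes with 95% intervals, obese against lean mice (left) and anti-PD-1 against IgG2a (right); filled points passed an adjusted p of 0.05 over 19882 genes and open points did not. On the left, 7 genes lie below 0 and Cpt1a above it with filled points for both antibodies; on the right no point is filled.

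Cpt1a (ENSMUSG00000024900, GRCm38 chromosome 19, 3322334 to 3385733) was the member that rose. Its levels in the lean IgG2a libraries were 41.1, 42.1, 39.3, 40.7 and 41.3 CPM, the tightest spread of any member, and in the obese IgG2a libraries 59.2, 81.3, 69.6, 114 and 126 CPM. No obese library fell as low as a lean one. The fitted difference was 2.21-fold (log2 fold change 1.14, SE 0.201, edgeR's quasi-likelihood test with Benjamini-Hochberg adjustment, adjusted p = 0.00168). Under anti-PD-1 the lean libraries held 49.6, 67.1, 57.9, 45.8 and 56.1 CPM and the obese ones 75.5 to 159 CPM with a median of 112. Those groups did not overlap either, and the difference was 2.02-fold (1.01, SE 0.185, adjusted p = 0.00129). The highest obese IgG2a value belonged to the liver-rich library, and without it the log2 fold change was 1.01 (adjusted p = 0.00278). Within the libraries rich in B cell genes the log2 fold changes were 0.64 (IgG2a, adjusted p = 0.0428) and 0.73 (anti-PD-1, 0.0606). Within the other libraries they were 1.33 (0.0958, with a single lean IgG2a library that is assumed to vary like the other groups) and 1.00 (0.0227).

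The bases upstream of the Cpt1a transcript that was quantified (Cpt1a-201) are shown because Cpt1a moved against the other members, and those upstream of Acadvl because it fell most among the dehydrogenases. The Cpt1a stretch of 234 bases, chr19:3323051-3323284 on the plus strand, ends at the base before the first exon of that transcript and lies in the first intron of another annotated Cpt1a transcript. The Acadvl stretch of 267 bases, chr11:70015412-70015678 on the minus strand, ends at the base before the annotated gene. Both are from RefSeq's GRCm38.p6, 5′ to 3′, with matches to the nuclear receptor hexamer AGGTCA, read on both strands, in capitals (TGACCT is its reverse complement).
Cpt1a: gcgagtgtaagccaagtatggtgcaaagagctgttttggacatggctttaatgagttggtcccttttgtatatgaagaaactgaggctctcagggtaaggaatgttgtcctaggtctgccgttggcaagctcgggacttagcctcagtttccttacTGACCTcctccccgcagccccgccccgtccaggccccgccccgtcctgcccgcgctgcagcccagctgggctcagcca
Acadvl: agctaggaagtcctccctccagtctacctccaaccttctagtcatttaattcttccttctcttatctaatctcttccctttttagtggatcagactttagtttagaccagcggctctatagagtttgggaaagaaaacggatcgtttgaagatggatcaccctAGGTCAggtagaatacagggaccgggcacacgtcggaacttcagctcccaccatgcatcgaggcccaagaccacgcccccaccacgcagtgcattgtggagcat
Each stretch holds 1 match. The hexamer is in 16.3% of 32851 promoter windows of 300 bases (250 before and 50 after the start), and in those of 3 of the 8 members that the table holds (Acadm, Acadvl and Cpt1a). The longer elements TNAAGGTCA, named for the estrogen-related receptors (1.28% of windows), and AGGNCANAGGNCA, the direct repeat named for the PPAR receptors (0.381%), matched none of the 8. These elements can overlap the hexamer. A match is a run of letters and no more.

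Cpt1b (ENSMUSG00000078937, chromosome 15, 89416405 to 89425863) fell most of all members. Lean IgG2a libraries held 112, 13.8, 46.0, 47.0 and 29.4 CPM, and obese IgG2a libraries 2.92, 4.48, 4.46, 6.34 and 3.84 CPM. The lean values spread over a wide range, yet the lowest of them exceeded every obese value. The gene was 11.2-fold lower in obese mice (log2 fold change -3.49, SE 0.441, adjusted p = 4.18e-05). In anti-PD-1 mice the lean libraries held 53.6, 70.5, 26.3, 44.1 and 57.8 CPM and the obese ones 3.83 to 12 CPM with a median of 7.98. Again no library overlapped, and the difference was 6.18-fold (-2.63, SE 0.359, adjusted p = 7.36e-05). Without the 5 muscle-rich libraries the log2 fold changes were -3.21 (adjusted p = 0.000336) and -2.39 (0.000175).

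The share of Cpt1b in the sum of the 2 full-length transcripts, a per-length measure in TPM, describes how the entry enzyme changed in make-up. It was 80.6, 33.4, 62.2, 63.0 and 52.1% in the lean IgG2a libraries and 40.7 to 61.5% with a median of 60.6% in the lean anti-PD-1 libraries. In the obese libraries it was 4.13 to 8.93% (IgG2a, median 7.43%) and 6.85 to 14.2% (anti-PD-1, median 9.09%). All 10 lean libraries thus lay above all 13 obese ones. In obese mice Cpt1a was the main Cpt1 transcript in every library, and in lean mice the larger part changed from library to library.

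**Figure D3:**
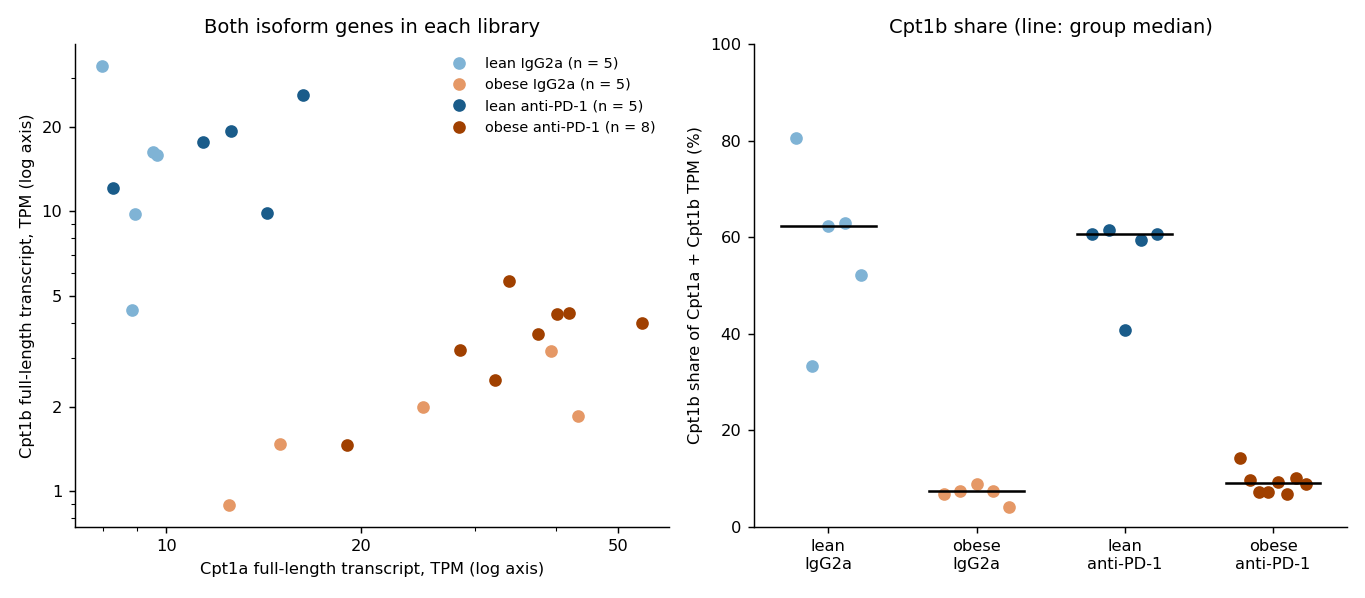
Left, TPM of the full-length transcripts of Cpt1a and Cpt1b in each library (log axes); right, Cpt1b as a percentage of their sum, with group medians as lines. Lean libraries sit between 33.4 and 80.6% and obese ones between 4.13 and 14.2%.

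Cpt1b lies on the same strand as, and within, the annotated read-through gene Gm44502, so reads of the pair can be split by the estimation. Gm44502 held 479, 592, 13 and 141 counts in lean anti-PD-1 1 and 4 and obese anti-PD-1 3 and 7, and 0 in all other libraries. With these counts added to Cpt1b the log2 fold changes were -3.49 and -2.68.

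Markers of other cells that use Cpt1b stood beside it as follows. Ucp1, the uncoupling protein of brown and beige fat cells, was at 603, 6.34, 77.4, 223 and 18.3 CPM in lean IgG2a mice and at most 0.694 CPM in obese ones. Of the 12 genes of the brown and beige fat list, 8 fell in obese IgG2a mice and 7 in obese anti-PD-1 mice. Its summed level went from 344 to 2000 CPM in lean and 34.0 to 149 CPM in obese libraries with IgG2a, and from 520 to 993 CPM in lean and 30.1 to 231 CPM in obese libraries with anti-PD-1. No marker was at 0 throughout a group. Its most abundant genes were Cidea, a lipid droplet gene, which fell by 6.46 (adjusted p = 1.51e-07) and by 6.34 (5.53e-09), and Kcnk3, a potassium channel, which fell by 2.30 (0.0314) in IgG2a mice and was at -1.02 (0.24) in anti-PD-1 mice. The 13 skeletal muscle genes summed to 8.86 to 3940 CPM in lean and 8.09 to 452 CPM in obese libraries with IgG2a, and to 3.03 to 3680 CPM in lean and 13.4 to 83.7 CPM in obese libraries with anti-PD-1. None of them fell in IgG2a mice and 8 of 13 fell in anti-PD-1 mice. The most abundant were Acta1 (-2.68, adjusted p = 0.425, and -2.14, 0.382) and Myh4 (-3.42, 0.534), which fell by 9.90 in anti-PD-1 mice (0.0268).

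Ckm, the muscle creatine kinase, was at 574, 50.4, 1.97, 0.149 and 1.10 CPM in the lean IgG2a libraries, in the order used for Cpt1b and Ucp1 above. The Cpt1b difference without the muscle-rich libraries is given above, and the part of brown and beige fat cells in it was not tested.

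**Figure D4:**
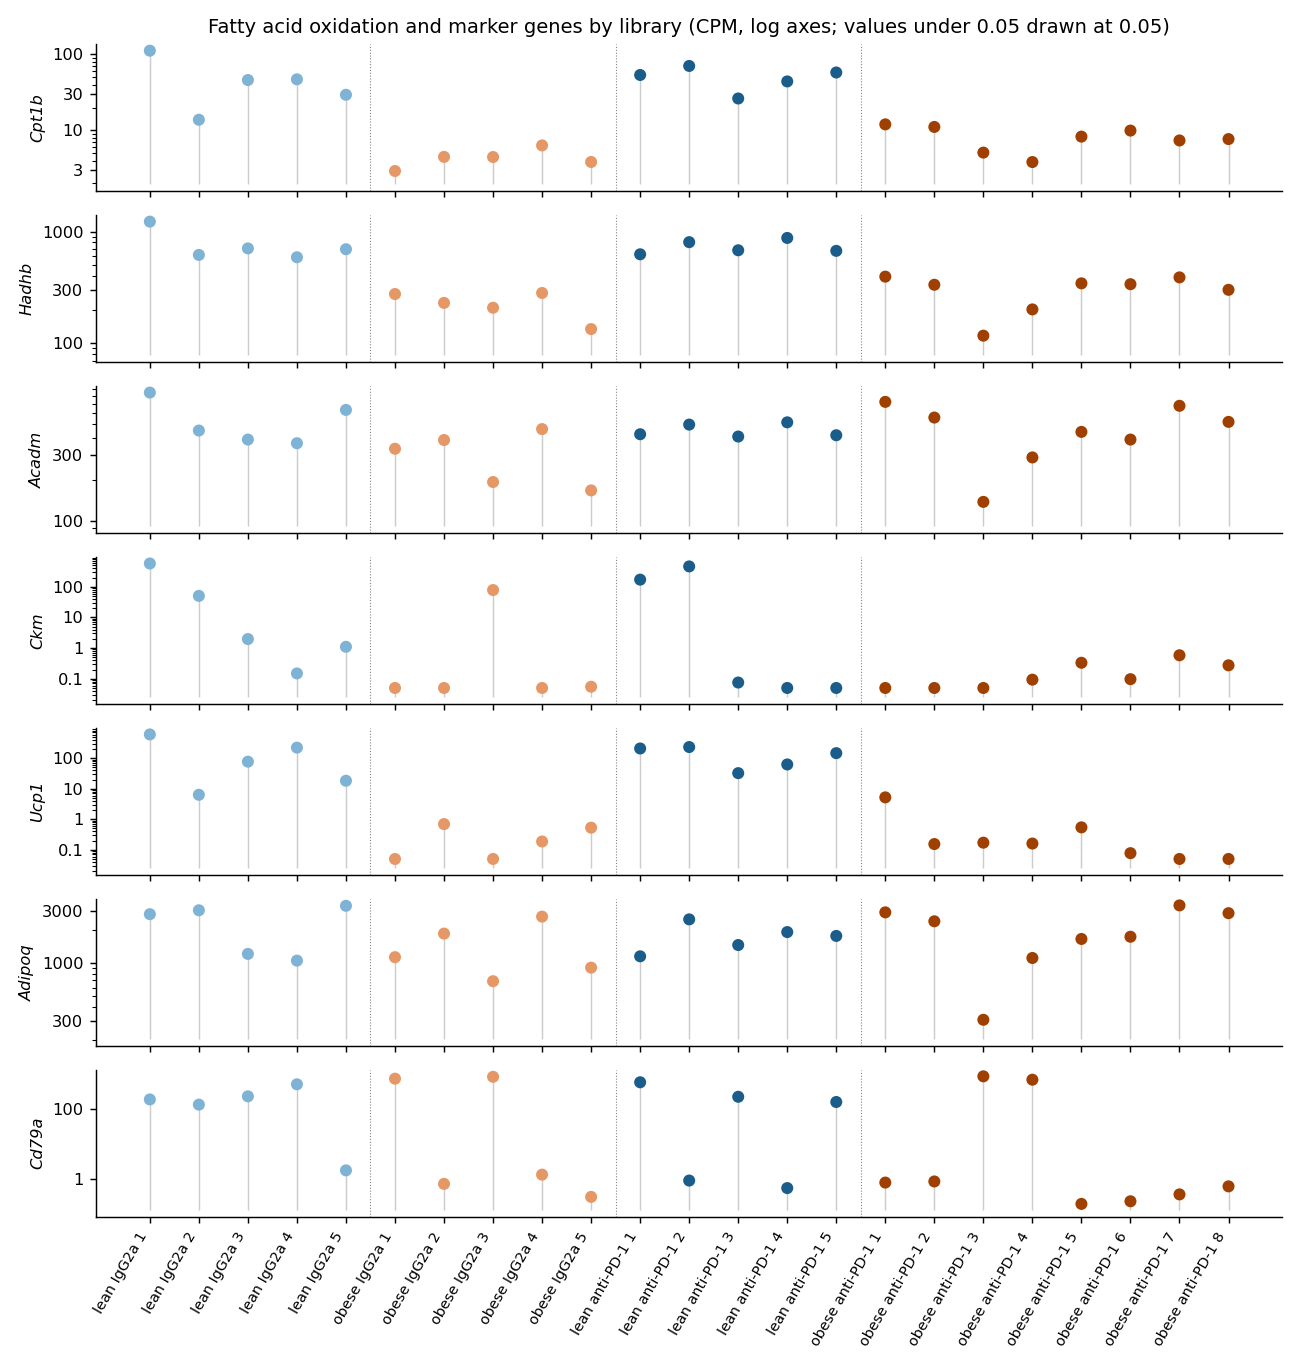
CPM of Cpt1b, Hadhb and Acadm and of marker genes for muscle (Ckm), brown and beige fat (Ucp1), fat cells (Adipoq) and B cells (Cd79a) in the 23 libraries (log axes, 1 column per library, colours as groups, values under 0.05 drawn at 0.05). Cpt1b and Ucp1 are low in all obese libraries, Ckm is high in 5 libraries of 3 groups, and obese anti-PD-1 3 is low in Adipoq, Hadhb and Acadm.

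The other steps of the carnitine shuttle fell less than Cpt1b did. Slc25a20 (ENSMUSG00000032602, chromosome 9, 108662088 to 108684641), the carrier of the inner membrane, went from 134 ± 59.5 to 53.1 ± 8.37 CPM in IgG2a mice (SD, n = 5 each). It fell by 1.33 on the log2 scale (SE 0.251, adjusted p = 0.00288), and by 1.03 in anti-PD-1 mice (SE 0.219, adjusted p = 0.00436), from 139 ± 32.7 to 68.2 ± 16.7 CPM. Neither antibody's groups overlapped. Cpt2 (ENSMUSG00000028607, chromosome 4, 107903981 to 107923610), the transferase that regenerates the acyl-CoA, went from 220 ± 65.6 to 73.5 ± 24.2 CPM in IgG2a mice and fell by 1.58 (SE 0.305, adjusted p = 0.00342). In anti-PD-1 mice it went from 177 ± 30.6 to 99.4 ± 35.2 CPM and fell by 0.83 (SE 0.265, adjusted p = 0.0476), close to the threshold.

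That last call was lost when any of 9 of the 23 libraries was left out. They were lean IgG2a 5 (adjusted p = 0.0628), lean anti-PD-1 2, 3, 4 and 5 (0.128, 0.057, 0.105 and 0.0738) and obese anti-PD-1 4, 5, 6 and 8 (0.0625, 0.0583, 0.0673 and 0.0626). The log2 fold change ranged from -0.92 to -0.71 over all 23 such fits. Without the 5 muscle-rich libraries Cpt2 missed the threshold for both antibodies (-1.33, adjusted p = 0.126, and -0.77, 0.182), and Slc25a20 for IgG2a (-1.03, 0.0713).

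Of the 3 dehydrogenases, Acadvl and Acadl fell and Acadm passed in neither comparison. Acadvl (ENSMUSG00000018574, chromosome 11, 70010183 to 70015411), the very-long-chain enzyme, held 947, 428, 415, 402 and 495 CPM in lean IgG2a libraries and 214, 152, 163, 127 and 116 CPM in obese ones. All obese values were below all lean values. It was 3.49-fold lower (log2 fold change -1.80, SE 0.262, adjusted p = 0.000215). In anti-PD-1 mice, lean libraries held 448, 557, 433, 554 and 527 CPM and obese ones 77.6 to 193 CPM with a median of 155. The groups again stood apart, 3.34-fold (-1.74, SE 0.226, adjusted p = 3.96e-05). Acadvl overlaps Dvl2 on the other strand, and these libraries did not record strand; Dvl2 averaged 1176 counts against 18866 for Acadvl.

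Acadl (ENSMUSG00000026003, chromosome 1, 66830839 to 66863277), the long-chain enzyme, went from 520 ± 191 to 186 ± 49.0 CPM in IgG2a mice and fell by 1.48 (SE 0.278, adjusted p = 0.00281). In anti-PD-1 mice it went from 446 ± 56.5 to 234 ± 74.8 CPM and fell by 0.93 (SE 0.242, adjusted p = 0.0174). Neither pair of groups overlapped. The anti-PD-1 call just missed the threshold without lean anti-PD-1 2 (adjusted p = 0.0518) or lean anti-PD-1 4 (0.0502). Without the muscle-rich libraries both missed it (-1.24, 0.118, and -0.88, 0.0922).

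Acadm (ENSMUSG00000062908, chromosome 3, 153922357 to 153944632), the medium-chain enzyme, passed in neither comparison. Its lean IgG2a values were 850, 452, 389, 366 and 637 CPM and its obese IgG2a values 334, 386, 192, 463 and 167 CPM, and the groups overlapped. The log2 fold change was -0.81 (SE 0.361, 95% interval -1.55 to -0.06, adjusted p = 0.211). In anti-PD-1 mice lean libraries held 425, 499, 409, 518 and 418 CPM and obese ones ranged from 138 to 728 with a median of 482. The obese values extended both above and below the lean ones, and the log2 fold change was 0.05 (SE 0.324, interval -0.62 to 0.72, adjusted p = 0.968). Whether Acadm differed from Acadvl or Acadl in its response was not tested. With the fat cell score of each library as a covariate, the Acadm log2 fold changes were 0.16 (IgG2a, adjusted p = 0.649) and 0.37 (anti-PD-1, 0.0877). That score is the mean log2 CPM of 16 fat cell markers. Of these markers, 6 fell in obese IgG2a mice and 5 in obese anti-PD-1 mice. The score thus holds part of the difference between lean and obese mice and does not measure fat cell amount alone.

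Hadha and Hadhb encode the alpha and beta subunits of the trifunctional protein, which hydrates, dehydrogenates and cleaves long chains. The genes lie head to head on chromosome 5, Hadha from 30118304 to 30155162 on the minus strand (ENSMUSG00000025745) and Hadhb from 30155248 to 30184593 on the plus strand (ENSMUSG00000059447). The 85 bases between them are shown because both genes fell together and start on either side of this stretch (RefSeq, GRCm38.p6, chr5:30155163-30155247, plus strand, with its 2 matches to the GC box GGGCGG, searched on both strands, in capitals).
Hadha and Hadhb: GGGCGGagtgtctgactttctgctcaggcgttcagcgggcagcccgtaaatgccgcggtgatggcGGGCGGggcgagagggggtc
A GC box is in 35.7% of all promoter windows and in those of 6 of the 8 members in the table.

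Hadha was at 797, 516, 565, 443 and 547 CPM in lean IgG2a mice and at 155, 189, 177, 216 and 185 CPM in obese ones, with no overlap. It was 3.11-fold lower (log2 fold change -1.64, SE 0.234, adjusted p = 0.00017). Under anti-PD-1, lean libraries held 518, 722, 525, 757 and 638 CPM and obese ones 141 to 314 CPM with a median of 253. That was a 2.69-fold difference without overlap (-1.43, SE 0.202, adjusted p = 0.0001). Hadhb was at 1228, 618, 707, 589 and 695 CPM in lean IgG2a mice and at 276, 230, 208, 282 and 134 CPM in obese ones. It was 3.39-fold lower (-1.76, SE 0.298, adjusted p = 0.0011), and 2.42-fold lower under anti-PD-1 (-1.27, SE 0.256, adjusted p = 0.00294), where lean values of 626, 804, 680, 877 and 672 CPM faced 117 to 395 CPM with a median of 336.

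The ratio of Hadhb to Hadha CPM had group medians of 1.27 (lean IgG2a), 1.22 (obese IgG2a), 1.16 (lean anti-PD-1) and 1.37 (obese anti-PD-1). Single libraries spanned 0.724 to 1.79, both ends in obese IgG2a mice, so the groups overlapped in this ratio. Without the muscle-rich libraries Hadhb missed the threshold in IgG2a mice (-1.52, adjusted p = 0.0655), while Hadha passed (-1.48, 0.0197).

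Acaa2 (ENSMUSG00000036880, chromosome 18, 74779197 to 74806208), the matrix thiolase that ends the cycle on shorter chains, passed in neither comparison. It measured 228 ± 90.5 CPM in lean and 121 ± 16.3 CPM in obese IgG2a mice, and although no libraries overlapped (166 to 387 against 99.4 to 143 CPM) its log2 fold change of -0.91 (SE 0.281, interval -1.49 to -0.33) had an adjusted p of 0.0571. It passed without lean IgG2a 4 (0.0467) or without obese anti-PD-1 3 (0.0153). In anti-PD-1 mice it measured 240 ± 40.7 and 156 ± 50.8 CPM, with overlapping groups (log2 fold change -0.62, SE 0.248, adjusted p = 0.116).

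The obesity result was repeated without the libraries that stood apart. Without the 5 muscle-rich libraries, which leaves 3 lean and 4 obese IgG2a libraries, 3 members fell and Cpt1a rose in IgG2a mice (Cpt1b, Acadvl and Hadha fell), where 0.428% of all genes fell and 0.0915% rose. In anti-PD-1 mice 5 fell in that fit (Cpt1b, Slc25a20, Acadvl, Hadha and Hadhb) and Cpt1a rose, where 2.2% of all genes fell and 1.54% rose. Within the 11 libraries rich in B cell genes, 7 members fell and 1 rose in IgG2a mice (6.06% of all genes fell and 3.1% rose), and 5 fell in anti-PD-1 mice (2.26% of all genes). Within the other 12, 8 fell and 1 rose in anti-PD-1 mice (5.31% of all genes fell and 6.07% rose). Their IgG2a comparison holds only 1 lean library, so its calls are not counted here. Without lean IgG2a 1, which was highest of its group for 9 of the 10 members, 7 fell and 1 rose in IgG2a mice (1.65% of all genes fell and 0.768% rose). Apart from that IgG2a comparison, Cpt1b, Acadvl and Hadha fell in all of these fits for both antibodies. On the log2(TPM + 1) scale, tested with limma, Slc25a20 (adjusted p = 0.0513) and Cpt2 (0.0637) missed the threshold in IgG2a mice, and Slc25a20 (0.105), Cpt2 (0.523) and Acadl (0.277) in anti-PD-1 mice. Over all genes 298 fell and 514 rose in IgG2a mice on that scale, and 421 fell and 3155 rose in anti-PD-1 mice. Cpt1b was at -2.04 and -1.72 on it, and at -2.35 and -1.92 on log2(TPM + 0.1). Its full-length transcript held 84.8% of its summed TPM in lean and 57.0% in obese IgG2a mice, and 97.6 and 95.6% of its counts. A pseudocount lowers the fold change of genes with low values. With the B cell score as a covariate, Acadm (-0.96, 0.0378) and Acaa2 (-1.03, 0.00797) fell too in IgG2a mice (7.74% of all genes fell), and Acaa2 (-0.80, 0.0231) in anti-PD-1 mice (7.75%). DESeq2 also called Acaa2 in IgG2a mice (adjusted p = 0.0211).

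Anti-PD-1 was then compared with IgG2a within each weight group; these comparisons share their libraries with those above. In lean mice 0 of the 10 members passed, and 0.0% of all genes did (edgeR's quasi-likelihood test). At an unadjusted p under 0.05 there were 1 member and 472 genes, and DESeq2 called 0 members and 22 genes. The member was Cpt1a, at 40.9 ± 1.04 CPM with IgG2a and 55.3 ± 8.22 CPM with anti-PD-1 (SD, n = 5 each). The values ran from 39.3 to 42.1 and from 45.8 to 67.1 CPM and did not overlap. How many of all genes separate in this way was not counted. The log2 fold change was 0.44 (SE 0.199, interval 0.03 to 0.85, edgeR's quasi-likelihood test, adjusted p = 1.0). The other 9 members had log2 fold changes from -0.32 (Cpt2) to 0.14 (Hadha).

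In obese mice 0 of 10 members passed the threshold between the antibodies, and 0.538% of all genes did. Of those 107 genes, 106 were lower with anti-PD-1, and 9 of the 15 liver markers were lower. Without the liver-rich obese IgG2a 5 the number was 0. It was also 0 without some other single libraries, such as lean IgG2a 1 or obese anti-PD-1 1. DESeq2 called 0 members and 399 genes. At an unadjusted p under 0.05 there were 1 member and 2700 genes. Cpt1b was that member, at 4.41 ± 1.25 CPM (SD, n = 5) with IgG2a and 8.16 ± 2.82 CPM (SD, n = 8) with anti-PD-1. The values ran from 2.92 to 6.34 and from 3.83 to 12 CPM and overlapped (log2 fold change 0.89, SE 0.373, interval 0.12 to 1.66, edgeR's quasi-likelihood test, adjusted p = 0.295). Acadm had the next largest value, 0.60 (SE 0.33, interval -0.08 to 1.29, adjusted p = 0.428), and Acadvl the lowest, -0.03. Fitted values were above 0 for 9 of the 10, with a median of 0.36 against 0.00 over all genes. Fat cell markers summed to 14900 to 43200 CPM in obese IgG2a and 7310 to 62700 CPM in obese anti-PD-1 libraries. With the fat cell score as a covariate the Cpt1b and Acadm values were 0.63 and 0.10, and without the liver-rich library 0.81 and 0.41.

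The interaction, which asks whether the obesity difference itself differed between the antibodies, was called for 0 of 10 members and for 0.0% of all genes. No member reached an unadjusted p under 0.05, against 1449 genes in all, and DESeq2 called 0 members and 50 genes. Members ranged from -0.13 (Cpt1a, SE 0.267, interval -0.68 to 0.42) to 0.86 (Cpt1b, SE 0.542, interval -0.26 to 1.99). Cpt2 was at 0.75 (interval -0.09 to 1.59) and Acadm at 0.85 (interval -0.16 to 1.86). These intervals are wide, and they leave room for differences as large as many of the obesity effects.

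Genes that work next to the 10 were followed as lists. Beside their counts stand the shares over all genes tested. In IgG2a mice 3.12% fell and 2.68% rose, and in anti-PD-1 mice 4.85% fell and 5.2% rose. Of 12 genes for shorter chains and for odd double bonds, 7 fell in obese IgG2a mice and 3 in obese anti-PD-1 mice, and none rose. Echs1, the short-chain hydratase, fell by 1.48 (adjusted p = 0.0033) and by 1.01 (0.0118), and Eci1, an isomerase, fell by 1.36 (0.00665) and by 1.05 (0.00952). Hsd17b10, a short-chain dehydrogenase, fell by 1.07 (0.00872) and by 0.81 (0.0148). Without the muscle-rich libraries 0 and 1 of the 12 fell, where 0.428 and 2.2% of all genes fell. Of the electron transfer flavoprotein, which takes electrons from the acyl-CoA dehydrogenases, the beta subunit gene Etfb fell by 1.23 (0.0295) and by 1.37 (0.00399). Etfdh, its oxidoreductase, fell by 1.09 in IgG2a mice (0.033) and was at -0.31 (0.538) in anti-PD-1 mice, and Etfa was at -0.68 (0.18) and -0.20 (0.729).

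Upstream, 13 genes for the supply and turnover of acyl-CoA were followed. Of these, 2 fell and 1 rose in IgG2a mice, and 2 fell in anti-PD-1 mice. Acot13, a thioesterase, fell by 1.22 (adjusted p = 0.00206) and by 0.89 (0.00539), and Crat, the carnitine acetyltransferase, fell by 1.67 (0.021) in IgG2a mice and was at -0.75 (0.203) in anti-PD-1 mice. Acsl3, an acyl-CoA synthetase, was at -1.07 (0.0502) and fell by 1.17 (0.0106). The member that rose was Acsl6, named after its values were seen, at 0.0588 to 0.341 CPM in lean and 0.060 to 58.3 CPM in obese IgG2a libraries, with overlapping groups.

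Of the genes that control malonyl-CoA, both carboxylases fell. Acaca, the carboxylase that makes malonyl-CoA for synthesis, went from 3030 ± 939 to 123 ± 63.5 CPM and fell by 4.63 (adjusted p = 3.93e-05), and fell by 4.04 (8.87e-06) in anti-PD-1 mice. Acacb, the carboxylase placed at the mitochondrial membrane, went from 716 ± 159 to 43.4 ± 14.6 CPM and fell by 4.04 (7.64e-07), and by 3.78 (5.97e-08) in anti-PD-1 mice. Mlycd, which degrades malonyl-CoA, fell by 1.12 (0.00274) and by 0.66 (0.0248). The list also holds 6 of the subunit genes of AMP-activated kinase, which did not pass in either comparison. Thus 3 of the 9 genes of this list fell in each. The protein activities were not measured.

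**Figure D5:**
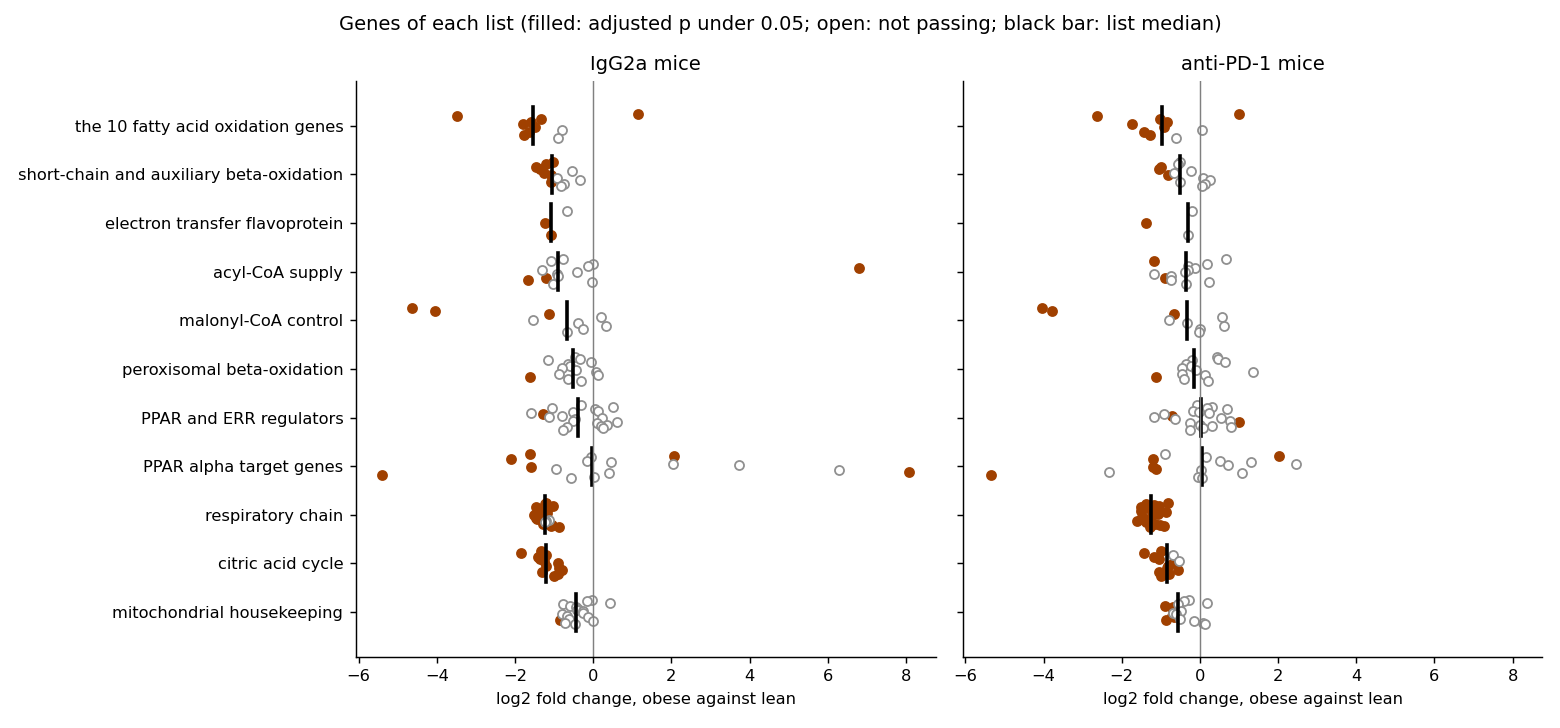
Log2 fold changes (obese against lean) of every gene in 11 lists, IgG2a mice on the left and anti-PD-1 mice on the right. Filled points passed an adjusted p of 0.05, open points did not, and black bars are list medians. Respiratory chain and citric acid cycle genes cluster near -1, and Acaca and Acacb lie near -4. Peroxisomal genes have medians of -0.53 (IgG2a) and -0.15 (anti-PD-1), and regulators of -0.40 and 0.03.

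The pathways that take over the products were lower too. Of 22 respiratory chain genes 19 fell in obese IgG2a mice (median -1.23) and 22 in obese anti-PD-1 mice (median -1.25). The complex III genes Uqcrc2 and Cyc1 fell by 1.51 (adjusted p = 1.12e-05) and 1.46 (0.000244) in IgG2a mice, and by 1.22 (1.87e-05) and 1.46 (3.38e-05) in anti-PD-1 mice. Of 13 citric acid cycle genes 13 and 11 fell (medians -1.22 and -0.83), among them the isocitrate dehydrogenase subunits Idh3g, by 1.35 (5.46e-05) and 1.04 (0.000136), and Idh3b, by 1.41 (0.000596) and 1.17 (0.000567). Mitochondrial housekeeping genes for protein import, channels and chaperones fell for 1 of 18 in IgG2a mice (5.56%, against 3.12% of all genes). In anti-PD-1 mice 7 of the 18 fell (38.9%, against 4.85%). Of these, Timm44 was at -0.58 (0.0599) and fell by 0.90 (0.00114), Clpp fell by 0.86 (0.0313) and 0.87 (0.00946), and Vdac3 was at -0.43 (0.199) and fell by 0.69 (0.0108). Without the muscle-rich libraries 2 and 19 of the 22 respiratory chain genes and 1 and 8 of the 13 citric acid cycle genes fell. In those fits 0.428 and 2.2% of all genes fell.

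Peroxisomal oxidation shortens very long chains outside mitochondria. Of its 14 genes 1 fell in each comparison (7.14%, against 3.12 and 4.85% of all genes). This was Pex11a, a gene of peroxisome division, by 1.62 (adjusted p = 0.0028) and 1.13 (0.00879). Ehhadh, the peroxisomal bifunctional enzyme, was at -1.17 (0.0555) and -0.19 (0.798), and the transporter gene Abcd2 at 0.08 (0.971) and 1.37 (0.0759).

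Of 20 genes for regulators known for these enzymes, 1 fell in IgG2a mice, and 1 fell and 1 rose in anti-PD-1 mice. Each count is 5.0% of the list, near the shares over all genes (3.12, 4.85 and 5.2% in turn). The coactivator gene Ppargc1b fell by 1.28 (adjusted p = 0.0478) in IgG2a mice and was at -0.93 (0.0793) in anti-PD-1 mice. Esrra, an orphan nuclear receptor, was at -0.80 (0.055) and fell by 0.72 (0.0358), and the corepressor gene Ncor1 was at 0.60 (0.308) and rose by 0.99 (0.035). Ppargc1a, a coactivator of mitochondrial genes, was at -1.59 (0.072) and 0.23 (0.839). Ppara, the fatty acid receptor, was low, at 3.30 to 4.12 CPM as group means, with log2 fold changes of -0.32 (0.914) and -0.08 (0.975).

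Genes known as targets of that receptor went in both directions: of 16, 4 fell and 2 rose in IgG2a mice, and 4 fell and 1 rose in anti-PD-1 mice. Fabp3, a fatty acid carrier of muscle and brown fat, fell by 5.39 (adjusted p = 0.0128) and by 5.35 (0.0019). Ucp3 fell by 2.11 (0.00676) and by 1.20 (0.046), and Pdk4, a kinase that turns off glucose oxidation, fell by 1.61 (0.0147) in IgG2a mice and was at -0.88 (0.0906) in anti-PD-1 mice. Cyp4a14, a fatty acid hydroxylase of the liver named after its values were seen, rose in IgG2a mice but ran from 0 to 149 CPM over the obese libraries. The obese IgG2a group includes the liver-rich library.

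Of 16 fat cell markers, 6 fell in IgG2a and 5 in anti-PD-1 mice. Those 6, named after their values were seen, were Agpat2, an acyltransferase of triglyceride synthesis (fell by 3.52, adjusted p = 0.000164), Gpd1 (fell by 2.51, 0.0131), Cfd (fell by 2.12, 0.0407), the glucose transporter gene Slc2a4 (fell by 2.11, 0.00752), Retn (fell by 2.06, 0.00897) and Adrb3 (fell by 1.96, 0.00701). Each of these falls was larger than that of any member but Cpt1b. In anti-PD-1 mice all of them but Gpd1 (-1.30, 0.0925) fell. Adipoq (-0.66, adjusted p = 0.535, and 0.21, 0.853) and Plin1 (-0.40, 0.789, and 0.81, 0.333) did not pass. The most abundant, Fabp4 and Lpl, were at -0.66 (0.508) and -0.28 (0.914) in IgG2a mice and at -0.12 (0.927) and 1.06 (0.356) in anti-PD-1 mice. The marker sum was 26000 to 71400 CPM in lean and 14900 to 43200 CPM in obese libraries with IgG2a, and 27300 to 53600 CPM in lean and 7310 to 62700 CPM in obese libraries with anti-PD-1. With the fat cell score as a covariate, 7 members fell and 1 rose for each antibody, where 5.67% of all genes fell and 9.37% rose in IgG2a mice, and 14.9% fell and 15.4% rose in anti-PD-1 mice. In that fit Cpt2 in IgG2a mice was at -0.73 (adjusted p = 0.00125), against -1.58 without the covariate. The score is the mean of these same 16 markers. The fit therefore cannot separate the amount of fat cells from a change of the markers within them. Obese anti-PD-1 3, the library with the lowest Adipoq (306 CPM) and with the highest Cd79a (887 CPM), was the lowest of its group for 7 members. Epithelial markers fell as well, 4 of 16 in IgG2a and 14 of 16 in anti-PD-1 mice, with sums of 1760 to 2810 (lean) against 600 to 1330 CPM (obese) and of 1570 to 5470 against 399 to 2180 CPM. Their most abundant genes were the keratins Krt19, which fell by 1.39 (0.0345) and by 1.91 (0.000895), and Krt18, which was at -1.10 (0.154) and fell by 1.78 (0.0056). Macrophage markers rose for 3 of 15 in IgG2a mice, and 1 rose and 1 fell in anti-PD-1 mice; Lyz2 and C1qa, the most abundant, passed in neither. The list summed to 684 to 1280 (lean) against 703 to 2890 CPM (obese), and to 544 to 1220 against 505 to 1710 CPM. The parts of epithelium and macrophages in the members' differences were not tested. Liver markers rose for 11 of 15 in IgG2a mice, whose obese group holds the liver-rich library, and for 0 in anti-PD-1 mice. Without that library the same 7 members fell and Cpt1a rose in IgG2a mice, where 1.88% of all genes fell and 0.822% rose. Heart and slow muscle genes (1 of 7 tested fell in each), B cell genes (0 of 10) and endothelial genes (0 of 9) made few or no calls.

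The transcripts behind each gene affect its TPM more than its counts. For Acadm, Hadha and Hadhb, spliced transcripts of at least 1000 bases held a median of 89.5, 95.6 and 79.2% of the gene's counts but only 38.8, 49.7 and 32.9% of its summed TPM. The rest of the TPM came from short annotated fragments, such as Acadm-207 (323 bases, retained intron) with 47.8%, Hadha-204 (323 bases) with 46.8%, and Hadhb-208 (507 bases, retained intron) with 38.2%. Summed TPM would therefore overstate these 3 genes against the others. With counts of the long transcripts alone, the same 7 members fell and Cpt1a rose for both antibodies. In that fit 3.12% of all genes fell and 2.69% rose in IgG2a mice, and 4.85% fell and 5.2% rose in anti-PD-1 mice. Hadhb was at -1.76 and -1.16 and Cpt1b at -3.52 and -2.74.

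The genes whose pattern over the 23 libraries was most like a member's were found by the mean absolute difference between centred log2 CPM values, among 12377 genes. The 5 nearest to Cpt1a were Pgm2l1 (0.225 log2 units), Slc36a1 (0.231), Nufip2 (0.236), Lats2 (0.239) and Stat6 (0.241), where the median over all genes was 0.694. Nearest to Cpt1b were Phospho1 (0.521), the mitochondrial pyruvate carrier gene Mpc1 (0.547), the pyruvate dehydrogenase gene Pdha1 (0.583), Mpc1-ps (0.593) and Echdc1 (0.594), against a median of 1.46. Mpc1-ps is a pseudogene of Mpc1, and reads of the pair may be shared. Nearest to the mean of all 10 members were Acsf3 (0.148), Atp5b (0.149), Sdha (0.152), Sucla2 (0.156) and Rmdn3 (0.161), against a median of 0.715. All patterns come from the same libraries and include the differences between the groups, so nearness is a description.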

How the data were processed

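Poly(A) RNA of 23 tumor-adjacent mammary fat pads was sequenced from libraries that do not record strand, per the labels' protocols. The deposited files give an estimated count and a TPM per transcript; transcript names follow GENCODE M21, and which program estimated them was not given in the sources used here. The submitters' processing notes name edgeR, limma and GRCm38 without a version. The authors' TPM values are per transcript length and have the same sum in every library.

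Estimated counts were summed per gene and rounded. Of 115088 transcripts, 888 matched no gene and held at most 0.208% of a library. Genes were filtered with filterByExpr (minimum count 10) and scaled by TMM; 19882 of 47311 were tested with edgeR 4.0.16 (quasi-likelihood test, R 4.3.3) over all 4 groups, with a common biological coefficient of variation of 0.805, and p-values were adjusted by Benjamini-Hochberg over all genes tested. DESeq2 1.42.0, limma 3.58.1 and other settings served as alternatives; 2 of them (long transcripts only, Gm44502 counts added to Cpt1b) were chosen after seeing the data. Only the main edgeR fit was run on simulated counts with known changes, for the obesity comparison in IgG2a mice.

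The 10 genes and all gene lists were chosen with earlier results of these data known. Named by rule were all 10 genes, the 3 genes with the smallest p of each pathway list, the 2 most abundant genes of each cell marker list, Acaca, Acacb, Ppara, Ppargc1a, Pdk4, Ucp1, Ckm, Alb and Adipoq, overlapping genes, and the 5 genes nearest in pattern; other names were chosen after their values were seen, and some genes that the rule names are not reported here. In the lists, 1 symbol was matched by a synonym. Replicate numbers were given in accession order and pair nothing. Promoter sequences are from RefSeq (GRCm38.p6).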

Additional observations from a re-analysis of the deposited data

Results flagged for a closer look

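The library lean IgG2a 1 lay far above the other 4 of its group for 4 of the 10 genes, by the gap to its nearest neighbour as a share of the group's range. Its levels were 239 CPM for Slc25a20, 947 CPM for Acadvl, 1228 CPM for Hadhb and 387 CPM for Acaa2. Of 40 gene and group combinations tested these were the 4 that stood out. All 4 come from the same library and are not independent, so the usual 1 in 20 by chance cannot be set against them. The same library had the highest Ckm (574 CPM) and Ucp1 (603 CPM) of all 23. Without it, the log2 fold changes in IgG2a mice were -1.01 for Slc25a20 (edgeR, adjusted p = 0.0123), -1.49 for Acadvl (0.000596), -1.52 for Hadhb (0.00476) and -0.63 for Acaa2 (0.206).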

How the results depend on the processing

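The differences between groups were recomputed under 41 alternatives, of which 23 left out 1 library each, and the interaction under 40, since a fit of only the groups compared gives none. Leaving out single libraries gave 7 to 8 genes lower and 1 higher in IgG2a mice, and 5 to 7 lower and 1 higher in anti-PD-1 mice. In these fits 1.65 to 3.91% of all genes fell and 0.768 to 5.16% rose in IgG2a mice. In anti-PD-1 mice 2.6 to 5.24% of all genes fell and 2.81 to 7.3% rose. Without the 5 muscle-rich libraries 3 genes fell in IgG2a mice, where 0.428% of all genes fell. In the libraries rich in B cell genes 0 rose in anti-PD-1 mice, where 0.517% of all genes rose. On log2(TPM + 1) and on log2(TPM + 0.1), 4 genes fell in anti-PD-1 mice, where 2.12 and 2.04% of all genes fell. Acadm had no stable sign in anti-PD-1 mice. In IgG2a mice it stayed below 0 in all 23 fits with a library left out (-0.954 to -0.585). Its sign reversed there in 1 of the 18 other alternatives, to 0.16 with the fat cell covariate. In anti-PD-1 mice it was -0.10 with voom and limma, -0.23 with a B cell covariate and -0.93 in the libraries rich in B cell genes. There it ran from -0.07 (without obese anti-PD-1 1) to 0.19 (without obese anti-PD-1 3) when single libraries were left out, and was also below 0 without obese anti-PD-1 2 (-0.01) or 7 (-0.06). In the libraries rich in B cell genes the antibody difference of Acadm in obese mice was -0.26, and in those poor in them the Cpt1b interaction was -0.054. The causes were not tested. No antibody or interaction test called any of the 10 genes under any of these alternatives.

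The number of all genes called moved more. The libraries poor in B cell genes include only 1 lean IgG2a library, and their IgG2a number rests on it. In IgG2a mice it was 1152, against 108 without the muscle-rich libraries, 255 in those poor and 1896 in those rich in B cell genes, 570 with a muscle covariate, 583 with only the groups compared, 2090 with DESeq2, 2978 with the B cell and 2990 with the fat cell covariate, and 495 to 1662 with single libraries left out. In anti-PD-1 mice it was 1999, against 574 in the libraries rich in B cell genes, 777 without the muscle-rich libraries, 1325 with a muscle covariate, 3122 with DESeq2, 3576 and 3708 on the TPM scales and 6027 with the fat cell covariate, and 1108 to 2432 with single libraries left out. For the antibody in obese mice it was 107, against 0 to 767. Scaling by library totals moved the median of all genes from 0.12 and 0.08 to 0.31 and 0.23. No paired analysis was possible because the labels carry no replicate numbers.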
